A study of Mus musculus with 15 samples.

Results

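GABA and glycine signalling was represented by 33 genes, out of 21938 protein-coding genes of the mouse annotation, and was examined for H3K4me3 at gene promoters in the adult amygdala. The genes were listed by name for their known function, with earlier results of these data known. They encode 13 GABA-A receptor subunits of the alpha, beta, gamma, delta, epsilon, theta and pi classes, 3 rho subunits, 2 GABA-B receptor subunits, 5 glycine receptor subunits, 2 postsynaptic proteins, 3 enzymes of GABA synthesis and breakdown, and 5 transporters. The study performed native H3K4me3 ChIP-seq on amygdala nuclei of male mice carrying mutations in the H3K4 methyltransferase Kmt2a, the H3K4 demethylase Kdm5c, or both. The series holds 11 H3K4me3 libraries and 4 inputs. The data described here are from its WT group, which carried neither mutation: 2 adult male F1 hybrids of 129S1/SvImJ and C57BL/6J, whose peaks were deposited as 1 list for both animals. The list gives, for each peak, the base of strongest enrichment over input (the summit) and a score, taken to be a −log10 q-value, so that a higher score means stronger evidence of enrichment. There is no value per animal, so no spread between replicates can be given, no test was made, and every comparison below is a description of this list. The mutant genotypes and the inputs were not analysed here.

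GABA is the main inhibitory transmitter of the forebrain, and glycine serves the same purpose mainly in the brainstem, spinal cord and retina. Both open chloride channels built from subunits of the pentameric ligand-gated family, and GABA also acts on a slower G protein-coupled receptor. H3K4me3 is found at the promoters of active and poised genes, most of all at those rich in CpG dinucleotides, the pairs of C followed by G at which mammalian DNA is methylated.

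The list held 24162 summits with scores from 1.18 to 341.7 and a median of 102.3. It does not say how many reads stand behind a score. As a check of the tissue, a promoter summit (within 1 kb of any annotated start site of the gene) was present at 5 of 5 neuronal marker genes, at 5 of 6 markers of GABAergic neurons (scores from 17.4 to 162.2, with no summit at Vip), at 3 of 3 astrocyte, 3 of 3 oligodendrocyte and 2 of 2 endothelial markers, and at 0 of 4 genes typical of liver, heart, pancreas and intestine. Markers of neurons, astrocytes, oligodendrocytes and vessels were thus all represented. Of all protein-coding genes, 64.7% had a promoter summit. The markers were chosen with earlier results of these data known, so these counts describe the list and are not an independent check. No group of microglial markers, or of markers separating the amygdala from other brain regions, was included. In bulk tissue, fewer cells that carry the mark and less of the mark per cell cannot be told apart.

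Of the 33 genes, 26 had a promoter summit, against 64.7% of all protein-coding genes. The best promoter summit reached the median of the list in 22 of the 33, against 52% of all protein-coding genes, although Glra1 lay exactly on that median, a value that 32 summits of the list share. Among the 26 genes with a summit, the best score had a median of 187.6 and quartiles of 132.9 and 216.8. For every protein-coding gene with such a summit the median was 194.6 and the quartiles 129.8 and 230.2, so the scores of the marked members lay in the same range as those of other marked genes. The 7 genes with no promoter summit were Gabra6, Gabrp, Gabrr1, Gabrr2, Gabrr3, Glra4 and Slc6a5. The 1 kb limit fell in a wide gap: the most distant best summit counted as a promoter summit, that of Nlgn2, lay 910 bp from the start site, and the closest summit to a gene without one, Gabra6, lay 5892 bp away. The plot of the best scores by role shows where each gene stood. The counts by role below are to be read against the same share of 64.7% of all protein-coding genes.

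**Figure D1:**
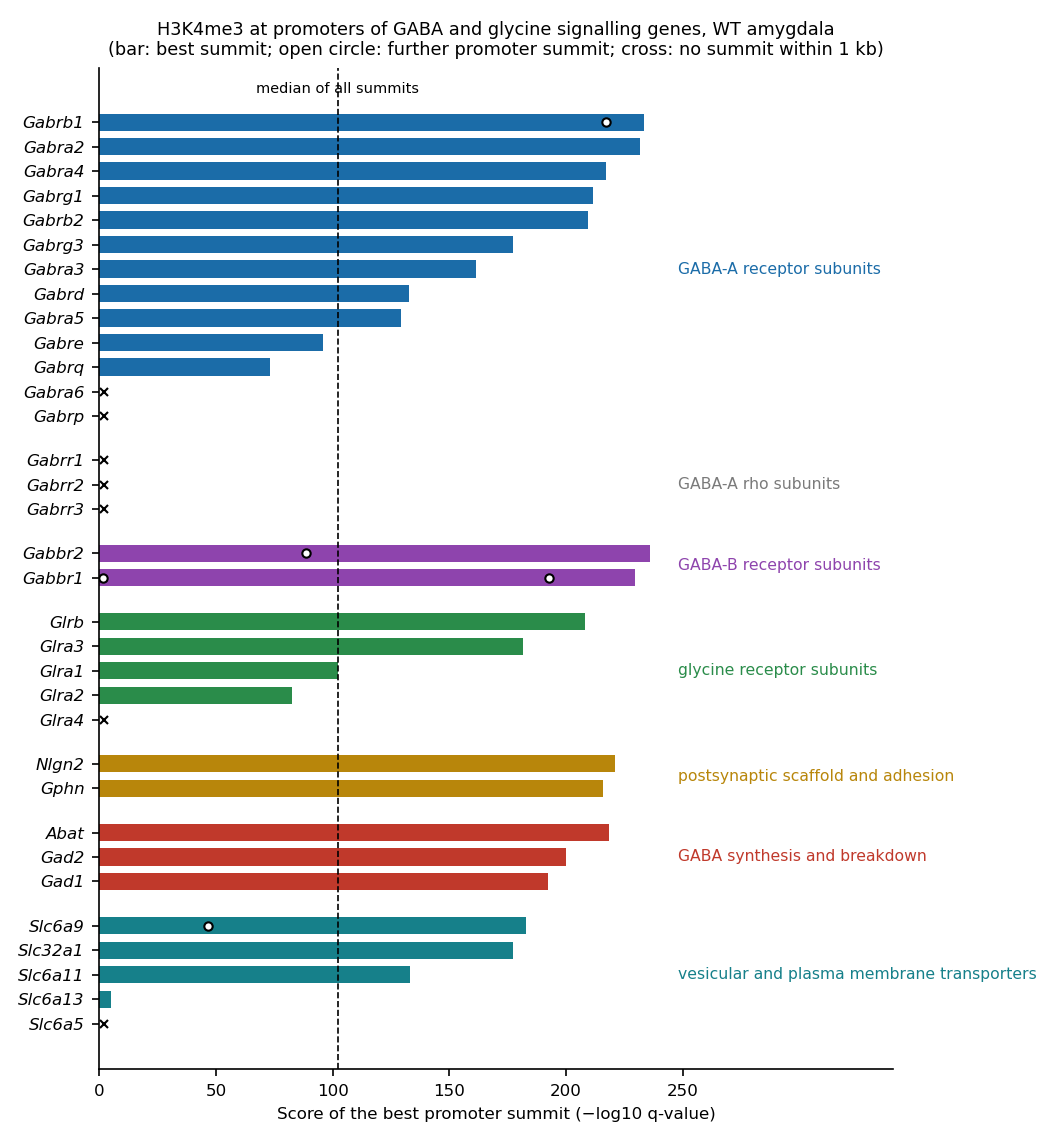
Score of the best promoter summit (−log10 q-value, horizontal axis) for each of the 33 genes, grouped by role, with open circles for further promoter summits of the same gene, crosses for genes with no summit within 1 kb and a dashed line at the list median of 102.3. The GABA-B subunits, scaffold and adhesion genes and enzymes all lie at 192.3 or higher, the rho subunits have no summit, and the receptor subunits and transporters spread from no summit to 233.2.

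GABA-A receptors are pentameric chloride channels, assembled most often of the alpha, beta and gamma classes, and 11 of the 13 genes of this group had a promoter summit. Scores ran from 73.2 to 233.2 with a median of 177.4. The highest belonged to Gabrb1 (233.2), which encodes a beta subunit, and to Gabra2 (231.5), whose alpha subunit is abundant in the amygdala and hippocampus. Gabra4 (217.2) encodes an alpha subunit of receptors outside the synapse, Gabrg1 (211.5) a gamma subunit prominent in the amygdala, and Gabrb2 (209.6) a widely used beta subunit. These 5 genes all stood above the median of marked protein-coding genes. Gabrg3 scored 177.4, Gabra3 161.6, Gabrd 132.8 and Gabra5 129.2, which were above the list median and below that of marked genes. Gabrd encodes the delta subunit, which replaces gamma in receptors outside the synapse, and Gabra5 an alpha subunit best known from the hippocampus. The lowest of the marked GABA-A genes were Gabre (95.7), encoding the epsilon subunit, and Gabrq (73.2), encoding theta, and neither reached the list median.

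No promoter summit was present at Gabra6 or Gabrp. Gabra6 encodes the alpha subunit that is characteristic of cerebellar granule cells, and Gabrp the pi subunit, best known outside the brain. At Gabra6 a single weak summit (score 3.77, at chr11:42315157) lay in coding exon 8, 5892 bp from the nearest start site, while the next summit outside the gene was 100.4 kb away, at the promoter of Gabrb2. The nearest summit to a start site of Gabrp was 65.8 kb away, at Ranbp17. None of the 3 rho subunit genes, Gabrr1, Gabrr2 and Gabrr3, whose products form GABA-gated channels known mainly from the retina, had a summit in its promoter or gene body. Their nearest summits lay 57.0 kb away at Pm20d2, 32.0 kb away at Ube2j1 and 64.7 kb away at Riox2.

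Many of these subunit genes lie next to one another, and the neighbours often had summits of their own. On chromosome 5, 1.40 Mb held Gabrg1, Gabra2, Gabra4 and Gabrb1, and this stretch had 6 summits, of which 4 reached the list median and were promoter summits of the 4 genes. The other 2 were weak: 3.63 in intron 2 of Gabra4 and 13.2 between Gabra2 and Gabra4. Gabra4 and Gabrb1 are transcribed away from each other from start sites that overlap by 195 bp, so their summit at chr5:71657610 (217.2) counted for both. Gabrg3 and Gabra5 on chromosome 7, across 0.794 Mb, had 1 summit each and no other. Gabra6 and Gabrb2 are neighbours on chromosome 11 and differed, with no promoter summit at the former and 209.6 at the latter. Gabre, Gabra3 and Gabrq lie within 0.587 Mb of the X chromosome, where Gabra3 had the highest score (161.6). Gabrr2 and Gabrr1 lie within 0.101 Mb of chromosome 4, a stretch with no summit at all.

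**Figure D2:**
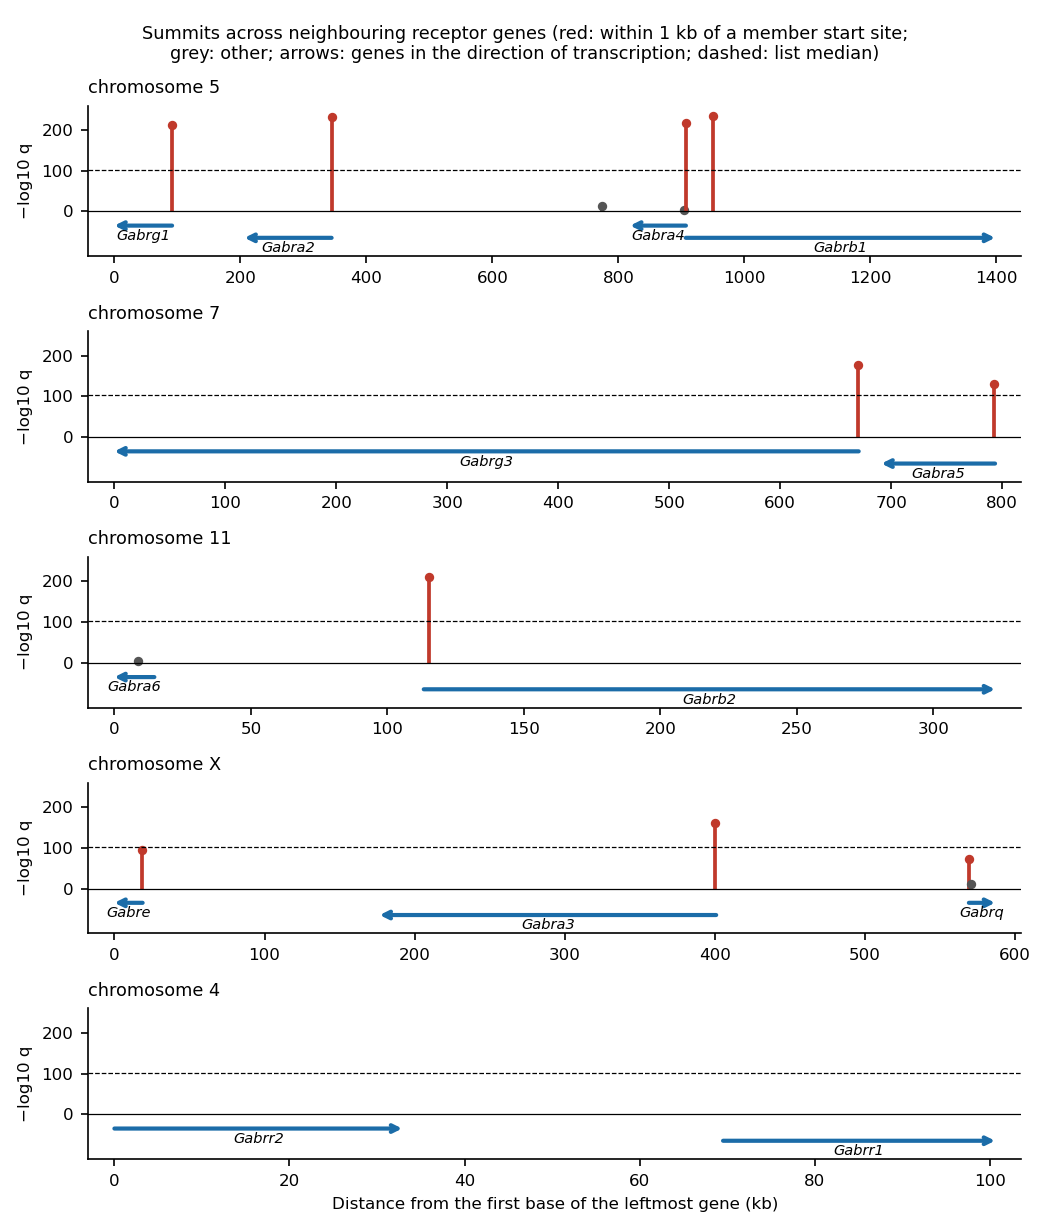
Score of each summit (−log10 q-value, vertical axis) across 5 groups of neighbouring receptor genes, by distance from the first base of the leftmost gene (kb), with arrows for the genes in their direction of transcription and a dashed line at the list median. Red summits lie within 1 kb of a start site of a member and grey ones do not. On chromosome 5 the 4 tall summits stand at the start sites, and on chromosome 4 there is none.

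Gabrb1 had a further promoter summit inside the gene with a slightly higher score. This summit (233.2, at chr5:71700737), which also lay within 1 kb of a start site of the antisense gene Gm38562, stood 43.1 kb inside the gene from the summit shared with Gabra4, and 805 bp downstream of the start site of Gabrb1-201, the transcript with the longest coding sequence (1422 bp). The outer start site, of Gabrb1-202, carries an annotated coding sequence of 679 bp. The 250 bases upstream of the Gabrb1-201 start site, chr5:71699682-71699931 on the plus strand of GRCm38, are shown as the promoter of the highest score among the GABA-A genes. They hold 6 CpG, which is also the median of all RefSeq promoters cut to the same length, and 49.7% of these hold fewer. Here and below the sequence is given 5′ to 3′ in the direction of transcription with the CpG dinucleotides in capitals.
Gabrb1-201: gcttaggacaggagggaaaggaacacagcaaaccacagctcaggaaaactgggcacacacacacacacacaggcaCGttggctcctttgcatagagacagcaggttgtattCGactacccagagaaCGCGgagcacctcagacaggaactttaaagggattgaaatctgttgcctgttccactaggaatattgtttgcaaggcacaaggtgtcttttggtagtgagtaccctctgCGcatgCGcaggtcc

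GABA-B receptors act through G proteins and consist of the products of Gabbr1 and Gabbr2, and both genes had more than 1 promoter summit. The best scored 229.4 at Gabbr1 and 236.1 at Gabbr2, while 2 of Gabbr1's 3 and 1 of Gabbr2's 2 reached the list median. More than 1 promoter summit was seen at 4 of the 33 genes (Gabrb1, Gabbr1, Gabbr2 and Slc6a9), against 11.7% of all protein-coding genes. Gabbr2, which encodes the subunit that couples to the G protein, had the highest score of all 33 genes (236.1, at chr4:46991035), in intron 1, 838 bp downstream of its only start site with a summit, and a second summit of 88.7 lay 384 bp upstream of it. The summits stood 1222 bp apart on either side of the same start site. The 250 bases upstream, chr4:46991874-46992123 on the minus strand, hold 40 CpG, and 98.7% of all RefSeq promoters hold fewer.
Gabbr2-201: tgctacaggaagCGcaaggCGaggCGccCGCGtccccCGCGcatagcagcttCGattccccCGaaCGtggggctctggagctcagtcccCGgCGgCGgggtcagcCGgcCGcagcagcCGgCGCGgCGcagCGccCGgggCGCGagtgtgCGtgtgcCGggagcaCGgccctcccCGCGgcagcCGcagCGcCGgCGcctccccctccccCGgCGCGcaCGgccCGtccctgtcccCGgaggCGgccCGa

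Gabbr1 encodes the subunit that binds GABA, in 2 main forms: GABA-B1a, with a pair of N-terminal sushi domains, and the shorter GABA-B1b, which is transcribed from a start site inside the gene. Both start sites were marked. A summit of 192.8 (chr17:37046759) lay 793 bp downstream of the start of Gabbr1-201, whose coding sequence of 2880 bp is the longest of the gene, and a summit of 229.4 (chr17:37051165) lay 491 bp downstream of the nearest start site at the inner promoter, which serves Gabbr1-203 with a coding sequence of 2532 bp. The inner summit thus had the higher score, and the summits were 4406 bp apart. The remaining summit, between them at the start of the noncoding Gabbr1-204, scored 1.78, above only 0.091% of the list.

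The sequences upstream of the 2 start sites, both on the plus strand of chromosome 17, are shown because they differ in CpG content in the opposite sense to the scores. The outer one, chr17:37045716-37045965, holds 16 CpG and a GC box (GGGCGG, searched on both strands and present in 32.7% of RefSeq promoters of this length). The inner one, chr17:37050381-37050630, holds 7 CpG and no GC box. It holds the letters TGACGTCA, the palindromic cAMP response element, 45 bases before the start site, and 1.55% of RefSeq promoters of this length hold them. A match of letters is not evidence of binding.
Gabbr1-201: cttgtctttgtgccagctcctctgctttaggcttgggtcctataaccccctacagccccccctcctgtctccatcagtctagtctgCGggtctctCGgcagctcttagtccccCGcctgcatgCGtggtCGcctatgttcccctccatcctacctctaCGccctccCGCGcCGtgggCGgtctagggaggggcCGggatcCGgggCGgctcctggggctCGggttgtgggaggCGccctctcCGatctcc
Gabbr1-203: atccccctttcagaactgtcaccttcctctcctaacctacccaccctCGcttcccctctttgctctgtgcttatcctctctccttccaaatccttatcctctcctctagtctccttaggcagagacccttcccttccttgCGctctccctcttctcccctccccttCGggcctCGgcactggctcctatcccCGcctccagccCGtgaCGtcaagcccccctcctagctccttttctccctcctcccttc

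**Figure D3:**
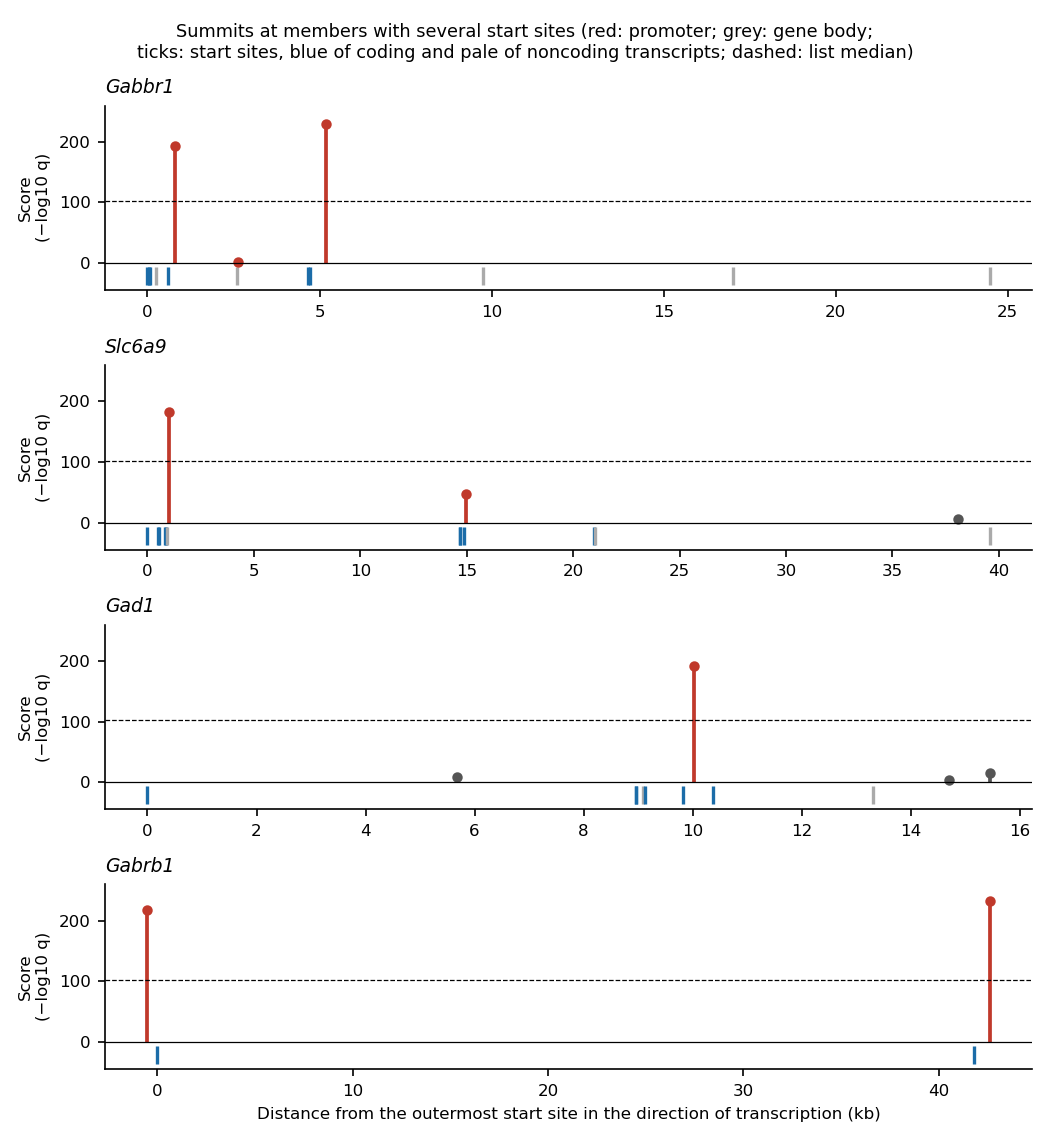
Score of each summit (−log10 q-value, vertical axis) at Gabbr1, Slc6a9, Gad1 and Gabrb1 by distance from the outermost start site (kb), with ticks for start sites of coding (blue) and noncoding (pale) transcripts and a dashed line at the list median. Gabbr1 and Gabrb1 have 2 tall summits each, Slc6a9 a tall outer and a lower inner one, and the summit of Gad1 lies about 10 kb from its outermost start site with weak grey gene-body summits around it.

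Glycine receptors are chloride channels of alpha subunits and the beta subunit, and 4 of the 5 genes had a promoter summit. Glrb, encoding the beta subunit that anchors the receptor to gephyrin, scored 207.9, the highest of the group. Glra3 scored 181.7, Glra1 102.3 and Glra2 82.7, the last being the alpha subunit of the immature brain. Glra1, the main alpha subunit of the spinal cord, also had 2 weak summits in intron 1 (4.45 and 11.1). Glra4 had no summit in its promoter or gene body, and the nearest (71.7) lay 38.2 kb away at Morf4l2.

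The postsynaptic and enzyme genes all had a promoter summit. Gphn, encoding the scaffold gephyrin that holds glycine and GABA-A receptors at the synapse, scored 215.7, 404 bp upstream of its start site and within 1 kb of a start site of the noncoding Gm48226 on the opposite strand. Nlgn2, encoding the adhesion protein neuroligin 2 of inhibitory synapses, scored 220.9, but its summit lay 910 bp upstream and within 1 kb of a start site of Tmem256 on the opposite strand, so the score cannot be given to Nlgn2 alone. The same holds for the other summits that lay within 1 kb of a start site on the opposite strand, at Gphn, Gad1, Slc32a1 (Gm14204), Gabrg3 (Gm9962), Gabra4 and both summits of Gabrb1. Abat, encoding the transaminase that breaks down GABA, scored 218.4. The enzymes that make GABA from glutamate, encoded by Gad2 and Gad1, scored 199.8 and 192.3. Gad1 had 7 start sites over its 48.9 kb. Its summit (chr2:70563106) lay 207 bp downstream of the start of Gad1-205 and 1064 bp from that of Gad1-201, which has the longest coding sequence (1779 bp), and the antisense gene Gad1os starts within 1 kb of it. The outermost start site of Gad1, of Gad1-204, had no summit within 1 kb.

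Among the transporters, 4 of 5 genes had a promoter summit, and this group had the widest range. Slc6a9, encoding the glycine transporter GlyT1 of astrocytes and some neurons, had summits at 2 promoters 13.9 kb apart: 182.8 at the outer one (chr4:117835536) and 46.4 at the inner one (chr4:117849468), each 98 bp downstream of the nearest start site. Slc32a1, encoding VGAT, which loads GABA and glycine into vesicles, scored 177.3, and 2 weaker summits lay 3.32 kb (20.7) and 2.37 kb (3.43) from the best one on its upstream side. Slc6a11, encoding the GABA transporter GAT3 of astrocytes, scored 133.2. Slc6a13, encoding GAT2, which in the brain is known mainly from the meninges, had the lowest best score of the marked genes (5.19), above only 8.22% of the summits in the list. Slc6a5, encoding the glycine transporter GlyT2 of glycinergic neurons, had none in its promoter or gene body, and the nearest was 63.9 kb away at Nell1.

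The upstream sequences of Slc6a13 (chr6:121299977-121300226, plus strand), Slc6a5 (chr7:49909896-49910145, plus strand) and Gabra6 (chr11:42321073-42321322, minus strand) are shown as the promoter of the lowest score and those of 2 genes without a summit. They hold 7, 10 and 2 CpG, and 53.7%, 62.2% and 18.8% of RefSeq promoters of this length hold fewer. The CpG count alone did not order them, since Slc6a5 without a summit has more than Slc6a13 with a weak one and more than the inner promoter of Gabbr1 with a summit of 229.4.
Slc6a13-201: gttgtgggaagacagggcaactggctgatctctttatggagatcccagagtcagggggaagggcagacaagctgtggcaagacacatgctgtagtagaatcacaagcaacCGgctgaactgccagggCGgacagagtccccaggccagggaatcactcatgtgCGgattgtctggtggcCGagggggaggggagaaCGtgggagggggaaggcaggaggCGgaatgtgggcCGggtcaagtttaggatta
Slc6a5-201: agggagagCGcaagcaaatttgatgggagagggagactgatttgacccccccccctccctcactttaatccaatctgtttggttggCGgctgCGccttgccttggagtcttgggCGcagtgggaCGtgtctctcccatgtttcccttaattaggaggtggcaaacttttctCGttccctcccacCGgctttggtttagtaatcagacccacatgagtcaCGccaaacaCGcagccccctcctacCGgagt
Gabra6-202: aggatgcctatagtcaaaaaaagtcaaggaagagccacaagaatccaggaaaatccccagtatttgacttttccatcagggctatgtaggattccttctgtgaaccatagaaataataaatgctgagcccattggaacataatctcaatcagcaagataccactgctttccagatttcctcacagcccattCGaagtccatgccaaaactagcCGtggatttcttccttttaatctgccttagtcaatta

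Across the 33 genes, the presence of a summit went with CpG content. CpG density was measured as observed over expected CpG (the count of CpG divided by that expected from the C and G content) in 500 bp either side of the start site of the longest coding transcript. All 14 genes at 0.6 or over had a promoter summit, as did 95.5% of all protein-coding genes in this class. Between 0.3 and 0.6, 11 of 12 had one, the exception being Slc6a5 (0.54), against 70.4% of all protein-coding genes. Under 0.3, 1 of 7 had one, Gabra3, against 16.2% of all protein-coding genes. The summit of Gabra3 lay 1032 bp downstream of that start site, and the sequence around the summit itself was also poor in CpG (0.23). The best summit also lay more than 1 kb from that start site at Slc6a9 (13834 bp), Gabbr1 (5199 bp) and Gad1 (1064 bp). In that order, CpG density was 0.33, 0.64 and 0.68 at the start site and 0.76, 0.47 and 0.74 around the best summit. The marked members were less CpG-rich than marked genes at large, with a median of 0.64 against 0.72, and 53.9% of them against 69.6% stood at 0.6 or over. Centred on the best summit, the medians were 0.61 and 0.70. Gabrg1 combined low CpG (0.37) with a score of 211.5, while Gabra5, at 0.84, scored 129.2.

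**Figure D4:**
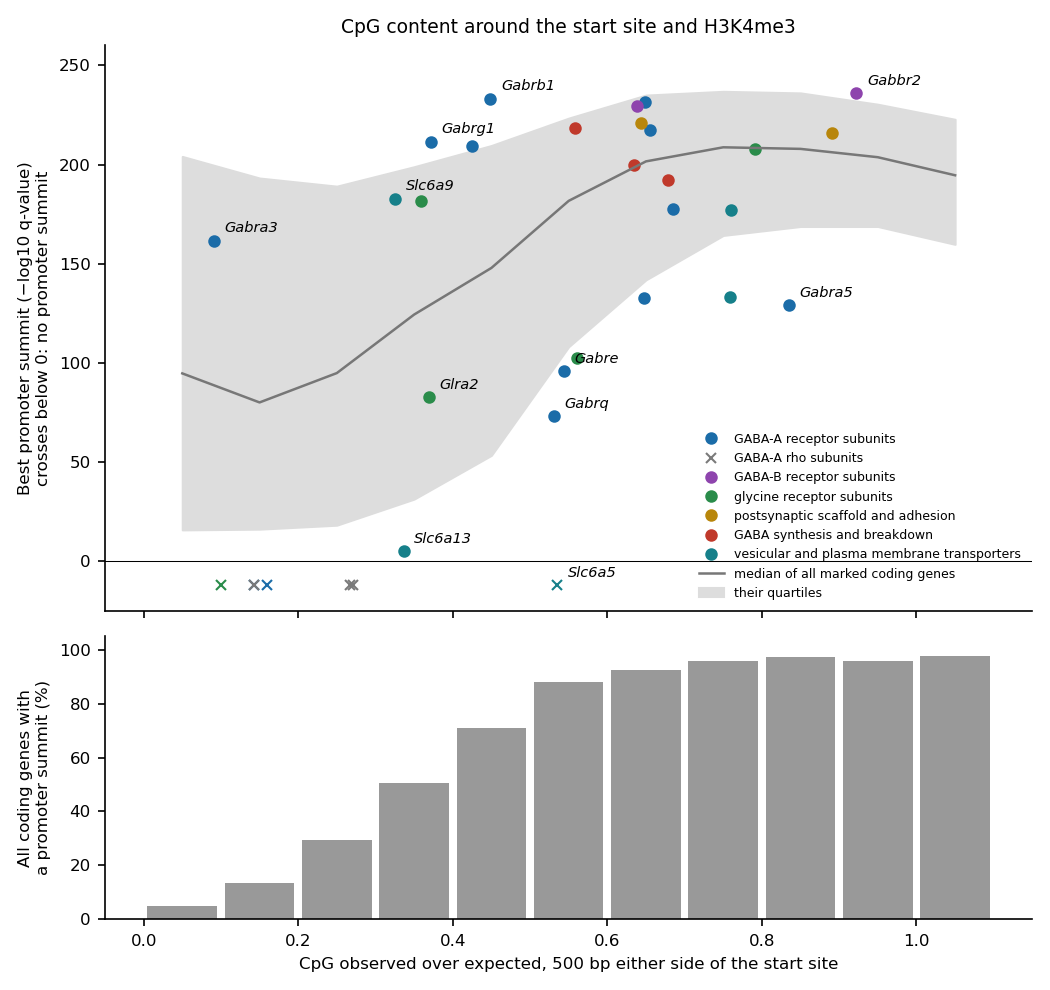
Upper panel, score of the best promoter summit (−log10 q-value) of each gene against observed over expected CpG around the start site, with crosses below 0 for genes without a summit, and the median and quartiles of all marked protein-coding genes in bins of 0.1 (grey line and band, the last bin holding all values of 1 and over). Lower panel, share of all protein-coding genes with a promoter summit in the same bins (%). Every gene without a summit except Slc6a5 lies under 0.3, and Gabra3 is the marked gene there. For Gabra3, Gabbr1, Gad1 and Slc6a9 the plotted summit lies more than 1 kb from the start site used for CpG.

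In the RefSeq promoter windows (250 bases before to 50 after a start site), which covered all genes except Gabrd, Glra1 and Abat, the 27 windows with a summit within 1 kb held a median of 14 CpG and the 12 without held 3.5, against 7 in all 32851 windows. The GC box GGGCGG was present on either strand in 59.3% of the former, 16.7% of the latter and 35.7% of all windows. The TATA-box letters TATAAA were present in 11.1%, 16.7% and 13.6%. Windows with a summit thus held more CpG and more GC boxes, but the GC box rested on 16 and 2 windows, and TATAAA on 3 and 2. The windows of all genes were not split by summit, so this contrast has no matching share beside it. Several windows belong to the same gene and are not independent.

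The best summit lay downstream of the nearest start site in 20 of the 26 genes (76.9%), against 79.3% of all marked protein-coding genes, and the median position was 198 bp downstream against 171. The genes with a best summit upstream of the nearest start site were Gabra2, Gabrg1, Gphn, Nlgn2, Gad2 and Slc32a1. At Gad2 and Gabrg1 that was an inner start site. Their summits lay 975 bp (Gad2) and 399 bp (Gabrg1) downstream of the start of the transcript with the longest coding sequence. In 9 of the 26 genes another summit lay within 5 kb of the best one, against 22.8% of all marked protein-coding genes.

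Summits in the gene body outside promoters were seen at 9 of the 33 genes, against 14.7% of all protein-coding genes, but the members are long, with a median of 70.1 kb against 17.4 kb, and the part of length in this count was not tested. The 12 summits were all weak, from 3.54 to 14.9 with a median of 6.49, whereas the gene-body summits of all protein-coding genes had a median of 14.3 and reached 317.4. Gad1 had 3 (8.08, 3.54 and 14.9), of which the latter pair lay in intron 3. Glra1 had 2, and Gabra4, Gabra6, Gabrq (11.1), Gad2 (11.1), Abat (5.85), Slc6a11 (7.13) and Slc6a9 (5.42) had 1 each. The one counted for Slc6a9 lay within 1 kb of a start site of Ccdc24.

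On the X chromosome 4 of 5 members had a promoter summit, against 51.4% of all protein-coding genes there, and 1 of 5 reached the list median, against 40.4%. The scores were 161.6 at Gabra3, 95.7 at Gabre, 82.7 at Glra2 and 73.2 at Gabrq, with no summit at Glra4. Their median was 89.2, against 203.8 for the autosomal members. Protein-coding genes on the X at large had a median of 163.4 against 196.5 on the autosomes. Males carry a single X chromosome, and the part of copy number in these scores was not tested.

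Other genes of the same pathways, which include receptor chaperones and trafficking proteins, GABA-B auxiliary subunits, chloride cotransporters, and enzymes of glutamine, GABA and glycine metabolism, were counted as a list. This list, too, was chosen with earlier results of these data known. Of 33 found in the annotation, 32 had a promoter summit, against 64.7% of all protein-coding genes. The list median was reached by 29, against 52% of all protein-coding genes. The best scores ran from 27.4 to 303.7 with a median of 204.5, against a median of 194.6 for all marked protein-coding genes. Slc6a12, encoding the betaine and GABA transporter BGT1, was the gene without a promoter summit. Receptor subunits, in particular the rho class, and the glycine transporter gene Slc6a5 thus made up the unmarked part of the 33 genes. None of the genes for scaffold, adhesion, synthesis or breakdown was unmarked. Every unmarked gene except Slc6a5 had observed over expected CpG under 0.3, where 16.2% of all protein-coding genes had a promoter summit. Gphn, Nlgn2, Gad1 and Gad2 lay at 0.6 or over, where the share was 95.5%. Abat (0.56) lay between 0.3 and 0.6, where it was 70.4%. These role groups hold only 2 and 3 genes, and the summit of Nlgn2 also lay within 1 kb of a start site of Tmem256. The part of CpG content in this contrast by role was not tested.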

How the data were processed

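Native ChIP-seq for H3K4me3 was performed by the authors on MNase-digested nuclei from microdissected amygdala, with a rabbit monoclonal antibody (clone RM340) and synthetic spike-in nucleosomes. Per the paper and the submitters' processing notes, the authors aligned reads to mm10 (GRCm38) with Bowtie, allowing 2 mismatches, discarded reads without a unique position, and ran MACS2 2.1.0.20140616 against input at a q-value below 0.1. The list deposited for the WT animals covers both of them and gives 1 bp per line. The deposited score was taken to be the −log10 q-value that MACS2 writes, since the list has no header. The Methods describe a common peak set and the removal of black-list regions for the analysis across genotypes, and whether either step was applied to this list is not stated. The list gives no read counts behind its scores, so no interval was computed for a score. For the share of all protein-coding genes, a 95% Wilson interval served as the limit for values recomputed under an alternative.

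Summits were assigned to GENCODE M21 genes with Python 3.11.15, numpy 2.4.6 and pysam 0.24.0. A promoter summit lies within 1 kb of any start site of any transcript of the gene, and a gene-body summit lies inside the gene and outside its promoters. Sequence was read from GRCm38, and promoter windows were taken from RefSeq tables. A window without an entry was not replaced. The assignment was tested on simulated data with planted summits, and no outcome of that test is reported here. Every gene of the list was to be named. The genes, lists and tissue markers were chosen with earlier results of these data known. One gene of the wider pathway list, Insyn2a, was not found in the annotation under that symbol and was not analysed here. The alternatives tried were promoter windows of 500 bp and 3 kb, start sites of coding transcripts only, the outermost start site only, summits at or above the list median only, and joining of summits within 1 kb.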

Additional observations from a re-analysis of the deposited data

How the results depend on the processing

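Of 41 values recomputed under an alternative, 30 stayed within the limits used here, which were 1.5 times for a count or a median score and the 95% Wilson interval for the share of all genes. The number of members with a promoter summit ranged from 22 to 26. The window of 500 bp lost Gabrb1 and Nlgn2, the outermost start site alone lost Gabra3, Gabrb2, Gad1 and Slc6a9, and summits at or above the list median alone lost Gabre, Gabrq, Glra2 and Slc6a13. Members with a gene-body summit fell from 9 to 5 with the 3 kb window and to 0 with summits at or above the list median. Members with more than 1 promoter summit went from 4 to 2 with 500 bp, 9 with 3 kb, 1 with the outermost start site and 2 with summits at or above the list median. The share of marked genes among all protein-coding ones, 64.7%, became 57.1% with 500 bp, 67.1% with 3 kb, 63.5% with coding start sites, 58.2% with the outermost start site and 52.0% with summits at or above the list median. No paired analysis was possible because the WT animals were pooled into 1 list, and for the same reason neither animal could be left out. A gene with no summit was not detected at this depth, which does not show that the mark was absent there.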
